A study of Mus musculus with 2 samples.

Results

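Mir221 and Mir222 are neighbouring microRNA (miRNA) genes of the X chromosome, and here they were followed in the forebrain of mouse embryos. They were taken by name, as 2 of the 1973 miRNA genes with a row in the tables, by a rule that uses no measured value. The data are microRNA-seq libraries from forebrain of the B6NCrl strain, healthy and without any named allele or treatment, at embryonic day 12.5. There was 1 group with 2 biological replicates, a pool of 120 embryos for replicate 1 and a pool of 68 embryos for replicate 2, each of mixed sex. Each pool gave 1 library from RNA under 30 nt, and the labels name a single donor record for both, so the spread between the replicates holds library preparation and sequencing as well as dissection. With no second tissue, age or treatment, the comparisons are of the genes with each other, with other miRNA genes and between the pools.

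A miRNA is cut from a hairpin precursor and guides Argonaute proteins to messenger RNAs, mostly through its seed, bases 2 to 8, which pairs with sites in the 3′ untranslated region (3′ UTR) and lowers the output of protein. miR-221 and miR-222 are cut from a common primary transcript and are known for lowering the cell-cycle inhibitors p27 (Cdkn1b) and p57 (Cdkn1c) of the Cip/Kip group, and the receptor Kit. Cip/Kip proteins block cyclin-dependent kinases and help neural progenitors to leave the cell cycle, which many of them do at this stage. The pair is also well known in blood vessels, where its level shapes the growth of endothelial and smooth muscle cells.

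The hairpins lie on the minus strand of chromosome X in mm10. Mir222 (ENSMUSG00000065471.1) is at chrX:19146893-19146971 and comes first in the direction of transcription. Mir221 (ENSMUSG00000065422.1) is at chrX:19146294-19146388, after a gap of 504 bases. Apart from the pair itself, 0 genes of GENCODE M21 overlap this stretch, so both hairpins are intergenic in that annotation. The nearest gene upstream is Gm14636, a non-coding transcript on the same strand, 10009 bases away. The nearest downstream is the pseudogene Gm5383 on the plus strand, 203065 bases away. The hairpins are printed below, from RefSeq on GRCm38.p6, with the annotated mature arms in capitals, to show where on each hairpin they lie. The 5p arm of Mir222, miR-222-5p, is not marked.

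Mir222 hairpin: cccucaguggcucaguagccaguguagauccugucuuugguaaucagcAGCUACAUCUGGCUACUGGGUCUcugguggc

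Mir221 hairpin: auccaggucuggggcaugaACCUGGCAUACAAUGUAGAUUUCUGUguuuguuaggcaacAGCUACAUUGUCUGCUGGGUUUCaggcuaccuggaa

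The mature 3p arms show how alike and how different the genes are, with the seed in capitals.

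miR-221-3p: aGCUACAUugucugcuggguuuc

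miR-222-3p: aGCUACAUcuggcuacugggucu

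miR-1928: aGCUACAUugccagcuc

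The 3p arms of the pair are both 23 bases long. Their first 8 bases are identical, and compared position by position without gaps, 11 of 23 bases are the same. They thus share the seed and differ over most of the rest. Among 1738 mature miRNAs of the RefSeq table, 3 carry this seed, and the third is miR-1928, shown above. Its gene on chromosome 1, Mir1928, had 0 reads in both libraries, and such a count allows a level of up to 0.692 CPM in the first library and 0.682 CPM in the second for counting error alone. Among miRNAs of that table, all reads of this seed assigned to a gene therefore came from Mir221 and Mir222. The 5p arm of Mir221 has another seed, in capitals: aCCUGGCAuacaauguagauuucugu. The tables count reads per gene, so reads of the 5p and 3p arms cannot be told apart, and a level of Mir221 or Mir222 is that of the whole hairpin.

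Sequence sharing bears on what the counts mean, because reads with several matches were counted by the authors in a row of their own and not to genes. The longest stretch that the hairpins of Mir221 and Mir222 share with each other is 9 bases. The longest that either shares with any of the other 2201 annotated miRNA hairpins is 12 bases. Each of the 3 mature arms marked was found, on either strand, in the transcripts of 1 gene only, its own, among 141767 annotated transcripts. Copies outside annotated transcripts were not examined. No read was counted opposite to either gene, with 0 reads in both libraries for both genes. Levels here use gene-strand reads, so a gene on the other strand could not add to them in any case. An unlisted transcript on the same strand was not examined.

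The seed pairs with the letters ATGTAGC in a messenger RNA. This 7-base match was looked for on the mRNA strand in the 3′ UTRs of the Cip/Kip genes and of Kit, taking for each gene the annotated transcript with the longest 3′ UTR. Of 20900 genes with a 3′ UTR, 9.46% held at least 1 match. Cdkn1b, which encodes p27, held 1 match in 3439 bases, where 24.6% of other 3′ UTRs had one in their first 3439 bases. Cdkn1c, which encodes p57, held 1 match in 688 bases, against 4.52% of other 3′ UTRs over that length. Kit, the receptor of stem cell factor, held 2 matches in 2177 bases, and 1.41% of other 3′ UTRs held at least 2 over that length. Cdkn1a, which encodes p21, held 0 matches in 1334 bases, against 9.59% of others with at least 1. A shorter match, TGTAGCA without the ATGTAGC match it can overlap, pairs with bases 2 to 7 and puts an A opposite base 1. It occurred 2 times in Cdkn1b, where 18.0% of other 3′ UTRs held at least 1 over that length, and 0 times in the others named. The share of other 3′ UTRs with at least 2 of the shorter match was not computed. The sites are shown because they are the letters through which the pair could pair with these messages. The matches are in capitals, in mm10.

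Cdkn1b at chr6:134924409-134924438, plus strand: catctgcctctaaaagcattggATGTAGCa

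Cdkn1b at chr6:134924485-134924514, plus strand: tatatagtttttatcttttactcTGTAGCA

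Cdkn1b at chr6:134924564-134924593, plus strand: ggggtgaagaacttgcttcaattTGTAGCA

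Cdkn1c at chr7:143458925-143458954, minus strand: cttcggctgggacctttcgttcATGTAGCa

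Kit at chr5:75654970-75654999, plus strand: catccttaatgatgggagatatATGTAGCa

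Kit at chr5:75656501-75656530, plus strand: ggctttttttgtaaatattgaaATGTAGCa

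All 4 of the ATGTAGC matches are followed by an A, and thus also have an A opposite base 1 of the miRNA. A match of letters is a description of the sequence. Messenger RNA and protein were not measured in these libraries, so nothing here shows whether a site was used.

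Both genes were read at a moderate level. Levels are given as counts per 1000000 assigned reads (CPM), out of 4333194 reads in replicate 1 and 4397107 in replicate 2. Mir221 had 1232 reads in replicate 1, or 284 CPM, and 1566 reads in replicate 2, or 356 CPM. Its mean was 320.2 ± 50.8 CPM (SD, n = 2). Exact 95% binomial intervals for counting error ran from 269 to 301 CPM in the first library and from 339 to 374 CPM in the second, so they did not overlap. Mir222 had 626 reads in replicate 1, or 144 CPM, and 751 reads in replicate 2, or 171 CPM. Its mean was 158 ± 18.6 CPM (SD, n = 2). Its intervals, 133 to 156 CPM and 159 to 183 CPM, did not overlap either. In both libraries Mir221 stood above Mir222, and replicate 2 above replicate 1 for each gene. Together the genes held 429 CPM in the first library and 527 CPM in the second, which is 0.0478% ± 0.00694 of assigned reads (SD, n = 2). No molecular identifiers are described for these libraries, so the intervals cover counting error only. In pooled tissue, fewer cells of a type and less RNA per cell cannot be told apart.

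**Figure D1:**
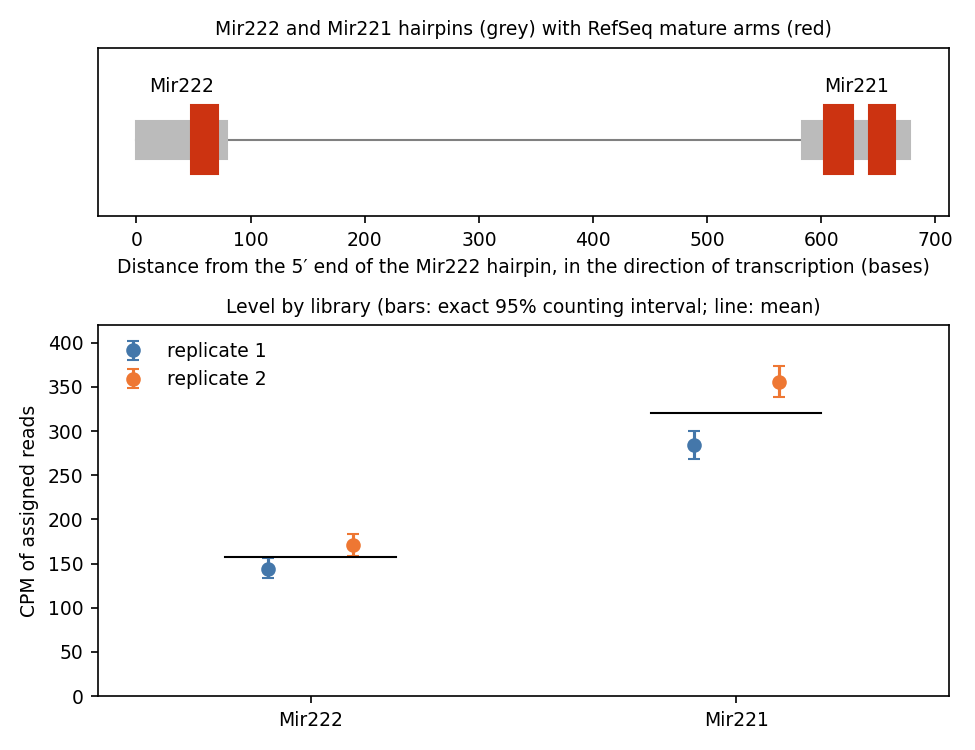
Top, the hairpins (grey) and mature arms listed in RefSeq (red) along the transcript, in bases from the 5′ end of Mir222; bottom, the level of each gene in CPM by library, with exact 95% counting intervals as bars and the mean as a line. Mir221 lies 504 bases after Mir222, and its level is above that of Mir222 in both libraries.

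By mean level Mir221 ranked 163 and Mir222 ranked 200 among the 1973 genes. Ranks in the single libraries were 172 and 154 for Mir221 and 209 and 198 for Mir222. Neighbours in this order were not separated: 15 other genes, from rank 155 to 170, lay within 1 SD of Mir221, and 19 others, from rank 193 to 212, within 1 SD of Mir222. Neither of these bands reaches the other gene, so the order of Mir221 over Mir222 was wider than their spread between the pools. Both were among the 229 genes, or 11.6% of all, with a mean of 100 CPM or more, and neither was among the 101 genes with 1000 CPM or more.

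The genes with levels most like each member were taken as those with the smallest summed difference in log2(CPM + 1) over the 2 libraries. For Mir221 these were Mir195a, a member of the miR-15 and miR-16 family, with a summed difference of 0.07, Mir483, which lies within Igf2, with 0.12, and Mir669l, of the repeat-rich cluster in Sfmbt2, with 0.24. Mir195a stood at 318 ± 40.3 CPM and, like Mir221, higher in replicate 2. The level of Mir669l is uncertain, because its hairpin has 20 or more bases in a row in common with another one. For Mir222 they were Mir345 with 0.14, Mir495 of the imprinted Dlk1-Dio3 region with 0.18, and Mir331 with 0.18. Over 2 libraries such likeness is one of level and says little of pattern.

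Mir221 gave about 2 reads for each read of Mir222. The ratio was 1.97 in replicate 1, with an exact 95% binomial interval of 1.79 to 2.17, and 2.09 in replicate 2, with 1.91 to 2.28. Its mean was 2.03 ± 0.0829 (SD, n = 2). The intervals overlap, and the ratio did not differ detectably between the libraries (two-sided Fisher's exact test on the 4 read counts, p = 0.389). Each read covers about 1 mature molecule, and the 3p arms have the same length, so no division by length was made. How well each sequence is captured in a library was not measured, and the ratio is one of reads. Per base of annotated hairpin, of 95 and 79 bases, it would be 1.69.

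Other miRNA genes, listed 2 by 2 as cut from a common transcript, gave a scale for this ratio. Some of these pairs, such as Mir322 with Mir503, are 2 genes of a larger cluster. There the ratio depends on which 2 genes were listed. Of 30 pairs listed, 26 had a row for both genes and 21 had both at 10 CPM or more. The level of the 2 genes differed by a median of 4.78 on the log2 scale over these 21 pairs, against 1.02 for Mir221 and Mir222. In 18 of the 21 pairs the genes lay farther apart than Mir221 and Mir222, and in 3 they lay closer. Where neither gene has 20 or more bases in a row in common with another hairpin, 9 of 10 pairs lay farther apart and the median was 3.99. These counts describe listed pairs and are no test. The pair nearest in ratio was Mir15a and Mir16-1, which limit cell-cycle entry, at log2 ratios of 0.89 and 0.93 in the 2 libraries. Next came Mir15b and Mir16-2 at 1.47 and 1.51, and Mir181c and Mir181d at 0.29 and 0.23. At the far end stood Mir99a with Mirlet7c-1, at 9.88 and 9.83, and Mir30e with Mir30c-1, at 8.60 and 8.52. In these far pairs and in both of the Mir15 and Mir16 pairs at least 1 gene shares a stretch with another hairpin, so that reads can be lost to several matches. Mir221 and Mir222 have no such stretch. Between the libraries the log2 ratio of Mir221 to Mir222 moved by 0.08, and 11 of the 21 pairs moved by more.

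**Figure D2:**
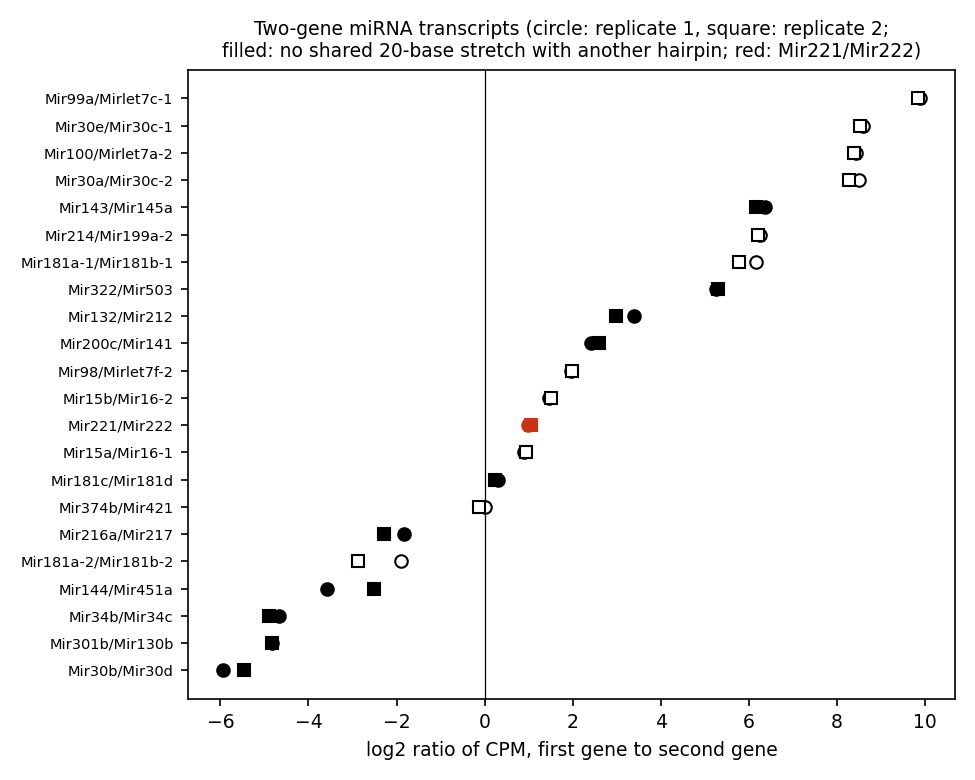
Log2 ratio of the levels of the 2 genes (x axis) for Mir221 and Mir222 (red) and 21 other pairs (black), with replicate 1 as circles and replicate 2 as squares; filled symbols mark pairs in which neither gene shares a 20-base stretch with another hairpin. Mir221 and Mir222 sit near 1 in both libraries, where most pairs lie farther from 0.

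Other miRNA genes known to target Cip/Kip inhibitors were mostly more abundant than the pair. Of 12 genes listed, 11 had a row, and 10 reached 100 CPM and 9 reached 1000 CPM, where 11.6% and 5.12% of all genes did. The list was drawn up for this pathway with earlier results of these data known. Genes listed for p21 (Cdkn1a) belong to the miR-17 family, which promotes cycling of progenitors. Mir17 stood at 60649 ± 594.7 CPM (SD, n = 2), Mir20a at 24125 ± 1104 CPM, and the pair of the Mcm7 intron, Mir93 and Mir106b, at 22647 ± 992.3 CPM and 15720 ± 768.8 CPM. The X-linked Mir106a and Mir20b stood lower, at 2742 ± 112 CPM and 1628 ± 160 CPM. The 6 genes together gave 127511 ± 557.6 CPM, which is 296 times the sum of Mir221 and Mir222 in replicate 1 and 243 times in replicate 2.

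For p57 (Cdkn1c), Mir92b stood at 19620 ± 283.3 CPM (SD, n = 2) and Mir25 at 1084 ± 105 CPM. Their sum was 48.0 times that of Mir221 and Mir222 in replicate 1 and 39.5 times in replicate 2. For p27 (Cdkn1b), Mir181a-1 stood at 3774 ± 130 CPM, Mir181a-2 at 835 ± 308 CPM and Mir24-2 at 96.5 ± 7.91 CPM, and Mir24-1 had no row. Their sum was 11.7 and 8.35 times that of the pair. All 3 share a stretch with another hairpin, so their levels are uncertain. Among the listed genes with a row, Mir24-2 was the only one below Mir221 and below Mir222. These sums depend on which genes were listed. Mir181c at 11607 CPM, Mir181d at 9686 CPM and Mir92-1 at 7027 CPM, of the same families by name, were not on the list. Reads of different sequences compare libraries of reads and not molecules, and repression was not measured.

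**Figure D3:**
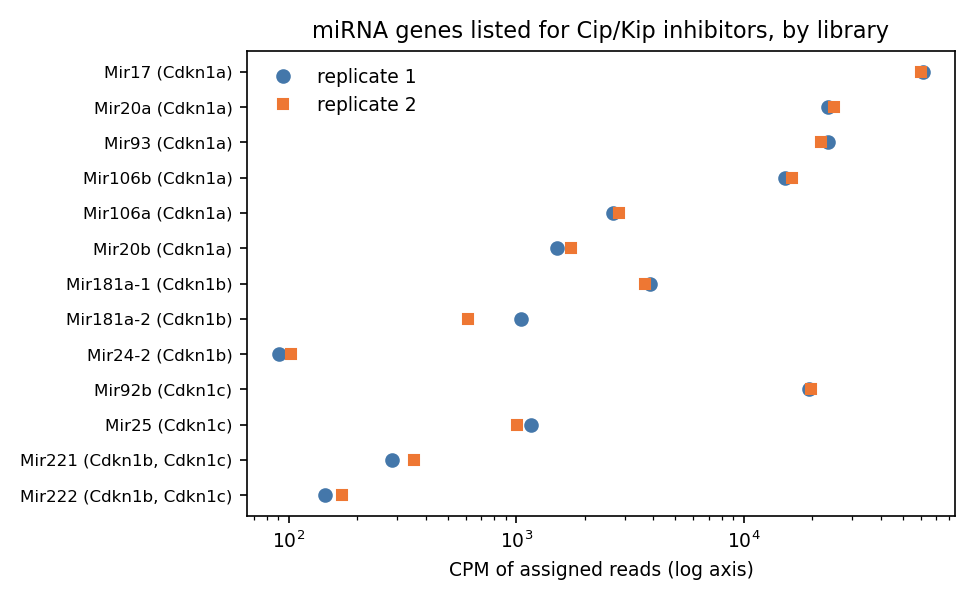
Level in CPM on a log axis of the miRNA genes listed for Cdkn1a, Cdkn1b and Cdkn1c and of Mir221 and Mir222, with replicate 1 in blue and replicate 2 in orange. Mir221 and Mir222 lie at the low end with Mir24-2, and Mir17 lies highest.

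**Figure D4:**
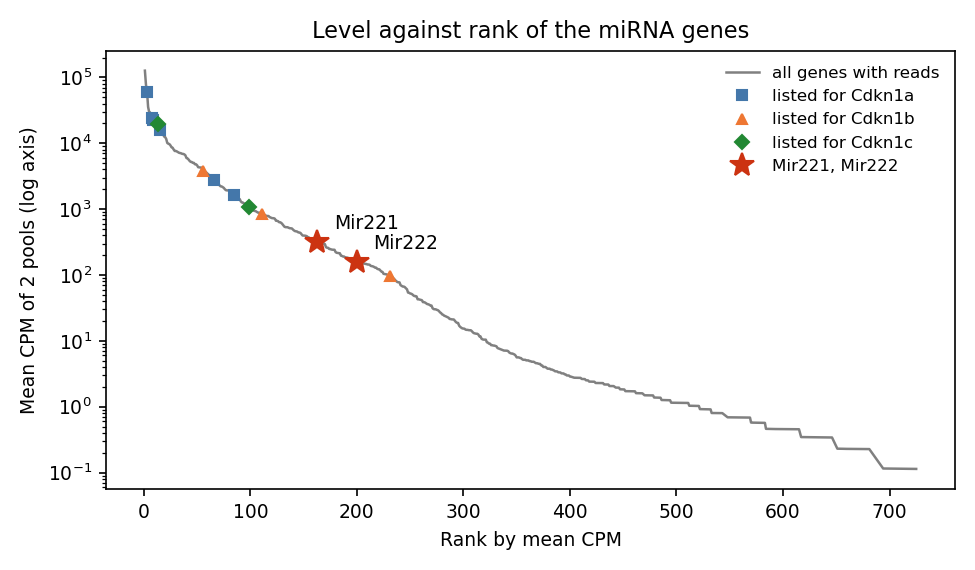
Mean CPM on a log axis against rank for all miRNA genes with reads (grey line), with Mir221 and Mir222 as stars and the Cip/Kip list as symbols. Mir221 at rank 163 and Mir222 at rank 200 lie on the falling part of the curve, below all listed genes but Mir24-2.

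On the X chromosome, 120 miRNA genes had a row. Of these 32 reached 100 CPM, or 26.7%, against 11.6% of all genes. No reads in either library were counted for 61 of them, or 50.8%, against 61.3% of all genes. Mir221 ranked 21 and Mir222 ranked 28 among them. The 5 highest were Mir322 at 14242 ± 270.0 CPM (SD, n = 2), Mir652 at 5959 ± 294 CPM, Mir361 at 3431 ± 109 CPM, Mir106a, and Mir351 at 2656 ± 121 CPM. Mir322 and Mir351 belong to a cluster known for slowing the cell cycle. The 120 genes together gave 47271 ± 1799 CPM, so Mir221 and Mir222 made up a small part of X-linked miRNA reads.

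Both genes were higher in the pool of 68 embryos than in the pool of 120. Mir221 was 1.25-fold higher in replicate 2, a difference of 0.32 in log2(CPM + 1), and Mir222 was 1.18-fold higher, a difference of 0.24. The read counts differed beyond counting error, with Benjamini-Hochberg adjusted p = 1.96e-08 for Mir221 and 0.00756 for Mir222 (two-sided Fisher's exact test over 511 genes). This test compares the 2 libraries, not conditions. By the same test 32.7% of the genes tested were called, and 20.2% were called higher in replicate 2, so a call of this kind was common. Neither gene reached a 2-fold difference, which 2.74% of genes did together with the adjusted p.

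Both differences were smaller than 1 SD of the variation estimated between the libraries, which comes from these same libraries and is a description, not a test. With edgeR, a common biological coefficient of variation of 16.5% was estimated over 403 genes, which gives an SD of 0.34 for the log2 ratio of 2 libraries. The difference was 0.96 of this SD for Mir221 and 0.71 for Mir222. With this dispersion in place of counting error alone, edgeR's exact test called neither gene, at an adjusted p of 1 for both. Among 229 genes of at least 100 CPM, the absolute difference was larger than that of Mir221 in 32 and larger than that of Mir222 in 49, and the median absolute difference was 0.11. The pair thus differed more than most of these 229 genes.

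Markers of other cell types differed between the pools as well. The endothelial miRNA gene Mir126a rose from 16564 to 21180 CPM, a difference of 0.35. Of the mural cell genes, Mir143 was higher by 0.30 and Mir145a by 0.50, and their summed level went from 5322 to 6577 CPM. The mesenchymal list, Mir214 and the Mir199 genes, was called higher in 3 of 4 members, against 20.2% of all genes tested, with a median of 0.48 and summed levels of 3373 and 4575 CPM. The 3 Mir199 genes share a stretch with another hairpin, so their levels are uncertain. The surface epithelium genes Mir203 and Mir205 were higher by 0.33 and 0.50. The 5 miR-200 family genes were called lower, where 64 of all 511 genes tested were. The epithelial list as a whole went from 13628 to 10008 CPM. Leukocyte genes went from 373 to 452 CPM, and erythroid genes from 327 to 251 CPM, with Mir451a lower by 0.53 and Mir144 higher by 0.51. No listed defining marker of these types with a row was at 0. The part of such cells in the levels of Mir221 and Mir222 was not tested.

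Of 9 neural genes with a row, 3 were called higher in replicate 2, where 20.2% of all genes tested were, and 0 lower, with a median difference of 0.08 and summed levels of 25674 and 26273 CPM. Mir92b and Mir137, at 5207 ± 112 CPM (SD, n = 2), made up most of this, and Mir9-3 was level between the pools, with 713 and 714 CPM. Of the 9 genes, 7 share a stretch with another hairpin, among them Mir9-3, while Mir92b and Mir137 do not. Reads of these 7 can be lost to several matches, so their levels beside Mir92b and Mir137 are uncertain. The 3 Mir124a genes, which define neurons, lay between 1.95 and 6.29 CPM, and each of them shares a stretch with another hairpin, so that reads can be lost to several matches. Hox cluster genes, used behind the forebrain, summed to 189 and 176 CPM, with none above 100 CPM. Of 46 X-linked genes tested, 19 were called higher in replicate 2, or 41.3%, and 2 lower, where 103 of all 511 genes tested, or 20.2%, were called higher and 64 lower, with a median difference of 0.06 against 0.04 over all genes tested. Mir221 and Mir222 are among the 19. The X-linked genes tested were more often at 100 CPM or more, 32 of 46 against 229 of 511. This test calls smaller differences where counts are higher, so the shares called are not compared at like depth.

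**Figure D5:**
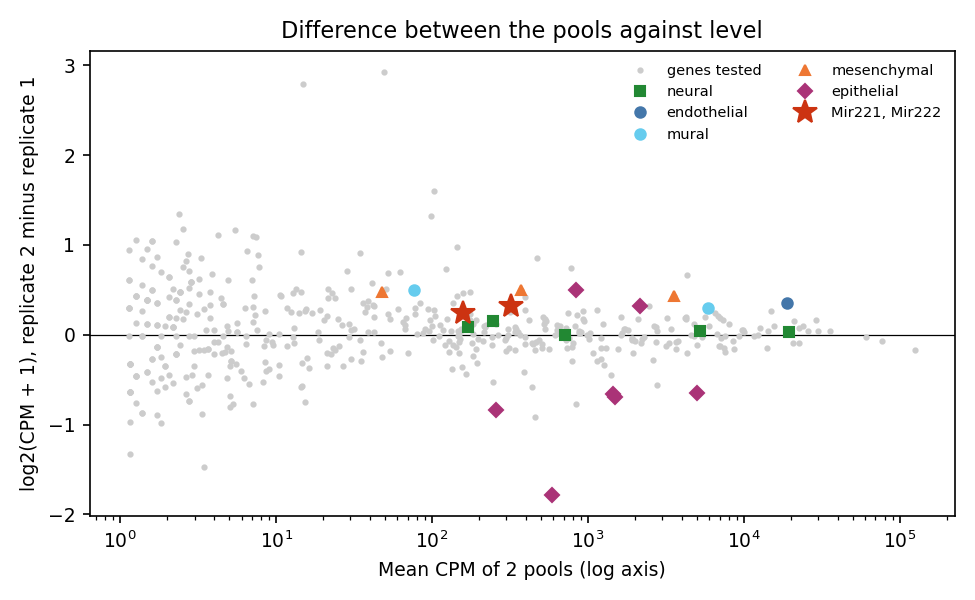
Difference in log2(CPM + 1), replicate 2 minus replicate 1, against mean CPM on a log axis for the 511 genes tested (grey). Stars mark Mir221 and Mir222, and colours mark neural, endothelial, mural, mesenchymal and epithelial marker genes of at least 100 reads. Erythroid, leukocyte and Hox cluster genes are not coloured. The stars lie above 0, at 0.32 and 0.24, as do the coloured neural, endothelial, mural and mesenchymal genes and 2 of the 7 epithelial genes. The coloured neural genes lie nearer to 0, from 0.002 for Mir9-3 to 0.156 for Mir128-1. The other 5 epithelial genes lie below 0.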

How the data were processed

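MicroRNA-seq counts of 2 forebrain pools were used. The deposited tables hold raw read counts per gene for both strands, the gene strand and the opposite strand; the authors made them from alignments to mm10 with annotation M4 (per the labels and deposited notes). The sources used here do not give the aligner or the counter. The 4 rows that name no gene stayed out of library sizes; they held 17.5% and 16.8% unmapped reads, 37.9% and 37.9% with several matches, 5.49% and 5.93% in no feature and 0% ambiguous. Of 1973 genes, 1894 matched GENCODE M21 (same build) by ID.

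CPM used gene-strand reads. Genes with at least 10 reads over both libraries were compared by two-sided Fisher's exact test with Benjamini-Hochberg adjustment (called under 0.05). The test was checked on simulated counts with counting error only, without the further variation between libraries that real pools have. With 1 group, edgeR's quasi-likelihood test has no contrast; edgeR 4.0.16 (R 4.3.3) gave the common dispersion and DESeq2 1.42.0 size factors. Python 3.11.15, SciPy 1.17.1 and pandas 2.3.3 were used. Floors are 3 counts. Named genes were the members, the 3 genes most like each, the Cip/Kip list, the 3 pairs nearest and the 2 farthest in ratio, the 5 highest X-linked genes, and markers of at least 100 reads, of which those bearing on a result are named; the Mir124a genes fall below that minimum and were named after their values were seen. Members and lists were chosen with earlier results of these data known; the 3′ UTR search was added after the files were seen.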

Additional observations from a re-analysis of the deposited data

How the results depend on the processing

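Of the 67 values recomputed under an alternative, 56 kept their direction and their side of the threshold or stayed within the spread of the pools, and 0 reversed. Some of the 56 could not have come out otherwise, so this count is no measure of robustness. With 2 pools, leaving 1 out always moves the mean of a level or ratio by less than its SD. A pseudocount does not enter Fisher's exact test, and with no opposite-strand reads the both-strand ratio is the same. With all mapped reads in the denominator Mir221 fell to 152 CPM and Mir222 to 74.6 CPM, and without the most abundant gene Mir222 came to 180.3 CPM. The rank of Mir222 was 209 with both-strand counts. Among 971 hairpins with no shared stretch the ranks were 127 for Mir221 and 157 for Mir222. The ratio per base of hairpin was 1.69. With edgeR's exact test on the common dispersion, added after the data were seen, the differences of 0.32 for Mir221 and 0.24 for Mir222 were not called, at an adjusted p of 1, and 5 of 511 genes were called in place of 167, with 25 at an unadjusted p under 0.05. That dispersion was estimated from the differences between the same 2 libraries, so this is no independent check. Under the other settings the adjusted p ranged from 1.96e-08 to 1.55e-06 for Mir221 and from 0.00734 to 0.0349 for Mir222. Leaving out a replicate gave 284 to 356 CPM for Mir221, 144 to 171 CPM for Mir222, ranks of 154 to 172 and 198 to 209, and ratios of 1.97 to 2.09. No paired analysis was possible because there is 1 group. At these depths counting error was 2.5% to 4.0% of a level, and having 2 libraries limits the precision more.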
